A study of Mus musculus with 4 samples.

Results

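Collagen chain genes were taken as every gene whose symbol has the form Col, a type number, the letter a and a chain number, such as Col3a1. The gene lists of the 2 libraries hold 43 of them among 26172 genes in all, and 42 of the 43 are in both lists. The choice uses names alone and no measured value.

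The data are single-cell cDNA counts from tumours grown by inoculating MC38, a mouse colon carcinoma cell line, into wild-type mice and into FOXP3 humanized mice. The study set the mouse genotypes side by side to describe regulatory T cells inside the tumour. Mice were 10 weeks old, tumours were taken on day 20, and neither group received a treatment. Cells enriched as tumour-infiltrating immune cells on a Percoll gradient were loaded on droplets, with 1 cDNA library per genotype. Which part of FOXP3 was replaced, the strain background and how many mice each library holds are not stated in the labels. Genotype therefore cannot be told apart from library, mouse or tumour. No difference between the libraries has a replicate check or a p-value, and every interval below is a 95% interval that covers counting error only.

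The chains were described over deep barcodes, defined as droplets with 5000 or more unique molecular identifiers (UMIs, each marking 1 captured RNA molecule) and no UMI of Cd3e, Cd3d, Cd3g or Ptprc. There were 6705 deep barcodes among 7691 in the wild-type library and 9671 among 11087 in the humanized library, or 87.2% of each. Their median depth was 16866 UMIs in the wild-type library and 12522 UMIs in the humanized one, so shares of barcodes with a UMI that are set side by side are also given after thinning every barcode to 5000 UMIs. The label of immune cells was checked before any barcode was left out for its markers: of 6818 and 9894 barcodes with 5000 or more UMIs, 113 (1.66%) and 223 (2.25%) held a UMI of Cd3e, Cd3d, Cd3g or Ptprc. Over those 6818 and 9894 barcodes, the 8 T cell markers summed to 4.53 and 5.999 UMIs per 1000000 UMIs (CPM) and 8 macrophage markers to 5.35 and 5.71. In the deep barcodes the macrophage markers summed to 5.35 and 5.16 CPM, of which Cd68 alone gave 4.93 and 4.62. There Lyz2 had 27 and 48 UMIs, and each other macrophage marker had 1 to 9 UMIs per library. In the deep barcodes epithelial markers summed to 5.84 and 3.10 CPM, and Dcn, Fbln1 and Pdgfrb led 10 fibroblast markers that summed to 72.2 and 68.2. Of the other fibroblast markers, Pdgfra had 461 and 416 UMIs, while Lum, Fap, Postn, Dpt, Thy1 and Mfap5 had 0 to 30 UMIs per library. No cell type is assigned to the deep barcodes here. The libraries share 1551 barcode names, which are running cell numbers and need not mark shared cells.

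Collagens are secreted or membrane-bound proteins built as triple helices, and each type combines its own chains. Fibrillar collagens (mainly types I, III and V here) form the banded fibres of connective tissue. Type IV forms the network of basement membranes, and type VI forms beaded filaments that link cells to the fibres and to that network. In solid tumours these proteins are known mainly as products of fibroblasts and vessels, although carcinoma cells can transcribe them too.

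The regions just upstream of 5 chains, Col6a1, Col6a2, Col1a2, Col3a1 and Col5a1, are shown because counts of these chains varied together most strongly across deep barcodes, as described further on. Each is the 250 bases before the gene's start on its own strand, 5′ to 3′, from RefSeq on build GRCm38.p6, which is not the GRCm39 build of the count files. Capitals mark matches on either strand to CCAAT, to GGGCGG (the GC box) or to TATAA.
Col6a1: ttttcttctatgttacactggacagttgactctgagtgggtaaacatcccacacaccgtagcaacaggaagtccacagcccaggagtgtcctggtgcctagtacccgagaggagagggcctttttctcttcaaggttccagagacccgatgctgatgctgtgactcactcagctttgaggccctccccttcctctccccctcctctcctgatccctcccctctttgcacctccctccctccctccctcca
Col6a2: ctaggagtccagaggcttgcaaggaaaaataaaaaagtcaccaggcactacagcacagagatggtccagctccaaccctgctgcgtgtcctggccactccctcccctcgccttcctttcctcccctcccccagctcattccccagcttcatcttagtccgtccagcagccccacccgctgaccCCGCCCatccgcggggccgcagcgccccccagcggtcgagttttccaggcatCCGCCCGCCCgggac
Col1a2: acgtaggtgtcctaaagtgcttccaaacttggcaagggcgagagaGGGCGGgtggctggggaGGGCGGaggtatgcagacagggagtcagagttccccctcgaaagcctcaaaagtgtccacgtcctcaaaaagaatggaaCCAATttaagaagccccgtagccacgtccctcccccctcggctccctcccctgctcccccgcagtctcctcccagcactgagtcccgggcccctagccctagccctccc
Col3a1: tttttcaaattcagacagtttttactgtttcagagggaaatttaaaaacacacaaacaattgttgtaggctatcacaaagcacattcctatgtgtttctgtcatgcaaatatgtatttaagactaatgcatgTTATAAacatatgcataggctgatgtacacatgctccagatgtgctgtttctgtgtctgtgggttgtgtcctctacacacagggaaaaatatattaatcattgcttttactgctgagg
Col5a1: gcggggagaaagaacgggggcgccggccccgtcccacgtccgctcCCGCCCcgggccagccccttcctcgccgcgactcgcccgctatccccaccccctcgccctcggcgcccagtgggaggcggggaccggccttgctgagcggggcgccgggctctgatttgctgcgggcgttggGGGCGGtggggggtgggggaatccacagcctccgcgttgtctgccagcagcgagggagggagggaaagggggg
The windows are chr10:76726045-76726294 on the minus strand for Col6a1 and chr10:76623405-76623654 on the minus strand for Col6a2, the first of 2 starts listed for that gene. Col1a2 is at chr6:4505368-4505617, Col3a1 at chr1:45311288-45311537 and Col5a1 at chr2:27886175-27886424, all on the plus strand. No motif was in all 5 windows. Col6a1 held no match, Col6a2 held 3 GC boxes, Col1a2 held 1 CCAAT and 2 GC boxes, Col5a1 held 2 GC boxes, and in Col3a1 the palindrome TTATAA gave 2 overlapping matches to TATAA. Their GC content ran from 35.2% in Col3a1 to 76.4% in Col5a1, beside a median of 52% over 27025 genes. A window was listed for 34 of the 43 chains: a GC box was in 61.8% of these against 32.9% of all genes, CCAAT in 35.3% against 34.5%, and TATAA in 17.6% against 23.5%.

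Nearly every deep barcode held collagen RNA. At least 1 collagen UMI was present in 99.3% of wild-type and 99.0% of humanized deep barcodes, and the median barcode held UMIs of 7 chains in each library. A pair of values without names gives the wild-type library before the humanized one. The family summed to 127164 UMIs in the wild-type library, or 985 CPM, and to 153651 UMIs or 1093 CPM in the humanized library, which is 0.0985% and 0.109% of all UMIs. As a rough guide to free RNA, 84 wild-type and 134 humanized T cell barcodes (under 5000 UMIs, 2 or more CD3 UMIs) held 27 and 51 collagen UMIs. These sums are 167 CPM (110 to 243) and 216 CPM (161 to 284), or 16.9% and 19.8% of the level in deep barcodes. Doublets were not removed and T cell barcodes are shallower, so these percentages do not give the share of free RNA in deep barcodes. With each barcode thinned to 1000 UMIs, a collagen UMI was found in 10.7% and 14.9% of T cell barcodes, whose median depths were 1796.5 and 1567.5 UMIs, against 57.1% and 60.8% of deep barcodes.

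Expression was concentrated in few chains. Of the 43 chains, 22 reached 100 UMIs over both libraries and are named below, while the other 21 had 1 to 99 UMIs each and 546 in all. Those 21 made up 0.25% of collagen UMIs in the wild-type library and 0.148% in the humanized one. Col11a1 was at 0 UMIs in the wild-type library, and Col4a6 and Col9a2 were at 0 in the humanized library, where a count of 0, taken to allow 3 UMIs in the library, allows up to 0.0232 and 0.0213 CPM. Levels are per captured molecule, since 1 UMI stands for 1 RNA whatever its length, but capture can still differ between genes.

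**Figure D1:**
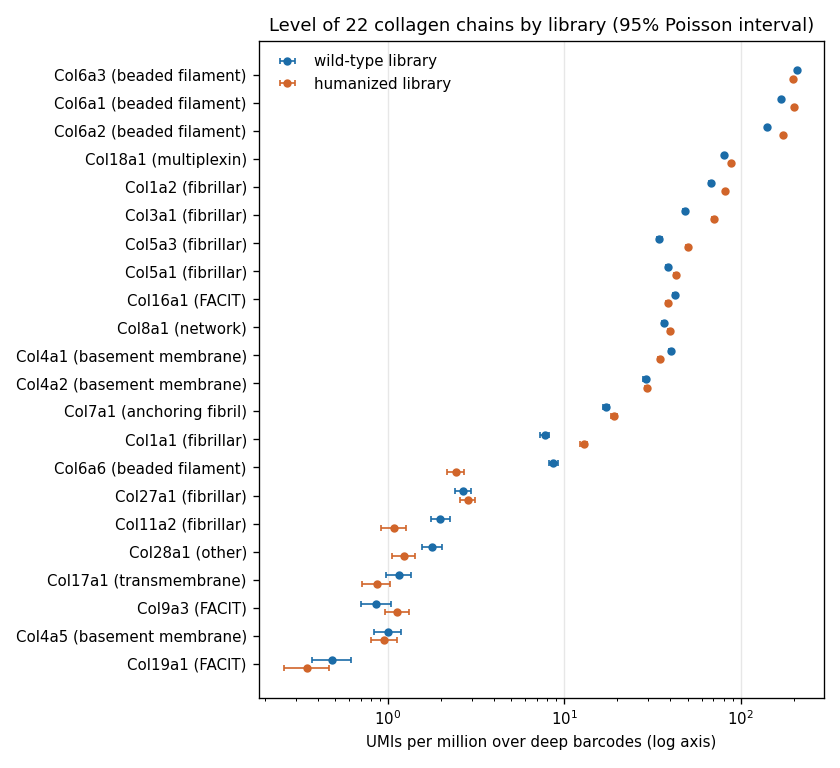
Level of the 22 collagen chains with 100 or more UMIs, in CPM over deep barcodes on a log axis, with 95% Poisson intervals and the chain class in brackets. Points are the wild-type and humanized libraries; the 3 type VI chains lie at the top, and Col6a6 shows the widest gap between libraries.

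Type VI chains, the beaded filaments, supplied most of the collagen molecules. Col6a3 stood at 209 CPM in the wild-type library and 199 in the humanized one, Col6a1 at 169 and 199.6, and Col6a2 at 141 and 174. Together these chains gave 52.8% and 52.4% of all collagen UMIs. Col6a3, the long chain that completes the type VI trimer, was detected in 88.0% and 81.9% of deep barcodes, and in 60.03% and 57.1% after thinning. The UMI ratios of the trimer differed between libraries: Col6a3 to Col6a1 was 1.24 (1.21 to 1.26) in the wild-type library and 0.997 (0.981 to 1.01) in the humanized one. Col6a1 to Col6a2 was 1.20 and 1.15.

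Col6a6, an alternative to Col6a3 in the type VI trimer, differed most between libraries among the 22 chains with 100 or more UMIs. It had 1115 UMIs in the wild-type library (8.63 CPM) and 340 in the humanized library (2.42 CPM). It was detected in 14.8% of wild-type and 3.41% of humanized deep barcodes, and in 4.07% and 1.18% after thinning. The log2 ratio of humanized over wild-type was -1.84 (-2.02 to -1.66), a level 3.57-fold higher in the wild-type library. Detection was close to what 1 even rate in every barcode would give, 14.9% and 3.44%, and no barcode held more than 4 Col6a6 UMIs. The wild-type UMIs were spread thinly over many barcodes and did not come from a few rich ones. The ratio was -1.84 among barcodes of 5000 to under 10000 UMIs, -1.84 among those of 10000 to under 20000 and -1.98 among those of 20000 or more. T cell barcodes held 0 and 1 Col6a6 UMIs. There 3 UMIs would be 18.5 and 12.7 CPM, above the Col6a6 level in deep barcodes, so these counts cannot tell the 2 kinds of barcode apart. Its neighbour Col6a5, another alternative type VI chain, had 5 UMIs in each library, and Col6a4 had 41 and 42.

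Among fibrillar chains, the type I chain Col1a2 led with 67.8 CPM in the wild-type library and 81.9 in the humanized one, in 49.4% and 52.0% of barcodes, or 24.4% and 28.8% after thinning. Col3a1, the chain of type III collagen in extensible tissues, stood at 48.5 and 70.4 CPM. Of the type V chains, which help set fibril diameter, Col5a1 stood at 38.7 and 42.8 and Col5a3 at 34.6 and 50.02 CPM. Col5a2, the usual partner of Col5a1 in type V trimers, was nearly missing, with 12 and 17 UMIs against 5003 and 6021 of Col5a1. Col5a1 to Col5a3 was 1.12 (1.07 to 1.17) in the wild-type library and 0.856 (0.827 to 0.886) in the humanized one, so the order of these chains turned.

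Col1a1, which supplies most chains of a type I trimer, was far below its partner Col1a2. It had 997 UMIs in the wild-type library (7.72 CPM) and 1811 in the humanized library (12.9 CPM). Col1a2 to Col1a1 was 8.78 (8.22 to 9.39) and 6.36 (6.05 to 6.68). Unlike Col6a6, Col1a1 was concentrated: it was found in 5.64% and 7.02% of deep barcodes, where 1 even rate would give 13.5% and 16.6%, and in 2.42% and 3.54% after thinning. The richest 1% of barcodes held 57.3% and 54.2% of Col1a1 UMIs. For Col1a2 the same share was 8.91% and 8.58%, and for Col3a1 14.6% and 10.2%. After thinning, the variance of Col1a1 UMIs over barcodes was 3.55 and 3.99 times their mean, higher than for any other of the 22 chains in either library, where 1 is the value for even counting.

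**Figure D2:**
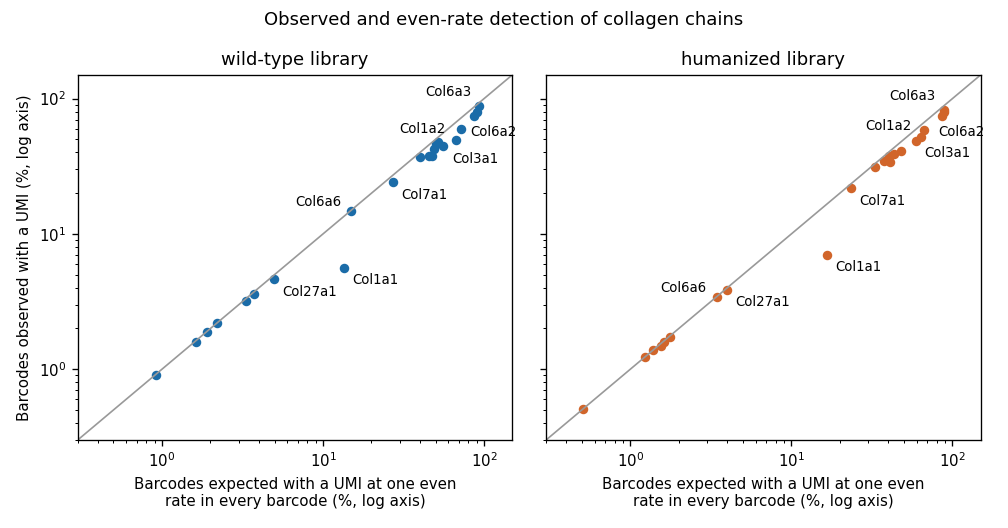
Share of deep barcodes with a UMI of each named chain (y, log axis) against the share that 1 even rate per UMI in every barcode would give (x, log axis), by library; the grey line marks equality. Col6a6 lies on the line in both libraries at 14.8% and 3.41%, and Col1a1 lies well below it at 5.64% and 7.02%.

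As a class the basement membrane chains summed to less than the fibrillar chains. Col4a1 stood at 40.4 CPM in the wild-type library and 34.8 in the humanized one, and Col4a2 at 29.0 and 29.4. Col4a1 was detected in 46.3% and 34.3% of deep barcodes, and in 17.4% and 14.7% after thinning. The pair lie head to head and their annotated genes overlap, and whether counting used strand is not given, so reads at that overlap may be assigned to either. Col4a1 to Col4a2, which combine in the common type IV trimer, was 1.40 (1.34 to 1.46) and 1.18 (1.14 to 1.24). The other type IV chains were scarce: Col4a5, a chain of kidney basement membranes, had 129 and 134 UMIs, and Col4a3, Col4a4 and Col4a6 had 0 to 12 UMIs per library.

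Of the other classes, the abundant chains differed by less than 1.5-fold between the libraries. Col18a1, a basement membrane zone proteoglycan whose end is released as endostatin, stood at 80.5 and 88.2 CPM, in 59.8% and 58.3% of barcodes, or 28.7% and 32.2% after thinning. Col16a1, a fibril-associated chain, stood at 42.6 and 38.9, and Col8a1, a network-forming chain of vessel walls, at 36.9 and 39.7. Col7a1, the chain of the fibrils that anchor epithelium to its stroma, stood at 17.3 and 19.2 CPM. The scarcer named chains, Col27a1 and Col11a2 of the fibrillar class and Col28a1, Col17a1, Col9a3 and Col19a1 of other classes, ranged from 0.349 to 2.83 CPM. Col27a1, a fibrillar chain of cartilage, had 344 and 398 UMIs, a log2 ratio of 0.09 (-0.12 to 0.30). Col28a1, a relative of the type VI chains, had 229 and 173 UMIs (-0.53, from -0.82 to -0.24), and Col17a1, a transmembrane chain of hemidesmosomes, had 149 and 121 (-0.42, from -0.78 to -0.07). The ratios of Col28a1 and Col17a1 lie near the median of -0.41 over all genes with 100 to under 1000 UMIs. Col9a3, a cartilage chain whose gene overlaps Tcfl5, had 111 and 159 UMIs (0.40, from 0.04 to 0.76), and the fibril-associated relative Col19a1 had 62 and 49 (-0.46, from -1.03 to 0.10).

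Summed by class, fibrillar chains were higher and basement membrane chains slightly lower in the humanized library. The 11 fibrillar chains summed to 202 CPM in the wild-type library and 262 in the humanized one, a log2 ratio of 0.37 (0.35 to 0.40). Fibrillar chains gave 20.6% (20.3 to 20.8) of collagen UMIs in the wild-type library and 24.0% (23.8 to 24.2) in the humanized one. The 6 basement membrane chains summed to 70.6 and 65.3 CPM, a log2 ratio of -0.11 (-0.15 to -0.07) that became 0.08 when libraries were scaled by the median of gene ratios. Fibrillar to basement membrane UMIs, a ratio that scaling of libraries does not change but barcode depth can, was 2.87 (2.80 to 2.94) in the wild-type library and 4.01 (3.92 to 4.11) in the humanized one. From the lowest to the highest depth band, fibrillar chains summed to 247, 221 and 186 CPM in the wild-type library and to 282, 263 and 251 in the humanized one. Across these bands the log2 ratio was 0.20, 0.25 and 0.43 for fibrillar chains and -0.09, -0.11 and -0.10 for basement membrane chains. Col3a1 and Col5a3 had the largest gaps among abundant fibrillar chains, with log2 ratios of 0.54 (0.49 to 0.58) and 0.53 (0.48 to 0.58). The Col3a1 ratio was 0.29 and 0.31 in the lower depth bands and 0.62 among barcodes of 20000 or more UMIs, while the Col5a3 ratio was 0.42, 0.58 and 0.54.

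Few chains passed a 1.5-fold difference. Of the 22 chains, 1 was at least 1.5-fold higher in the humanized library (Col1a1), where 0.641% of 13730 genes with 100 or more UMIs were. At least 1.5-fold lower were 2 chains (Col6a6 and Col11a2), beside 12.9% of all genes. The Col1a1 log2 ratio of 0.74 (0.63 to 0.85) moved with depth, at 0.70, 0.02 and 1.28 in the lowest, middle and highest depth bands. Col11a2 had 256 and 151 UMIs and a log2 ratio of -0.88 (-1.18 to -0.59), in a range of 100 to under 1000 UMIs where 33.4% of genes were that much lower and 1.29% that much higher. Among genes of 1000 to under 10000 UMIs, the range of Col6a6 and Col1a1, 5.94% were lower and 0.34% higher. Of the 11 chains with 10000 or more UMIs none passed in either direction, beside 2.34% of genes lower and 0.487% higher. The median log2 ratio was 0.10 over the 22 chains and -0.21 over all genes, but it varied with level. At 100 to under 1000 UMIs it was -0.42 over 7 chains and -0.41 over all genes of that range. At 1000 to under 10000 UMIs it was 0.09 over 4 chains and -0.20 over genes. At 10000 or more UMIs it was 0.14 over 11 chains and -0.09 over genes. Scaling by the median of gene ratios adds 0.19 to every ratio. That scaling turns the sign of Col6a3 from -0.07 to 0.12, of Col16a1 from -0.13 to 0.06 and of Col4a5 from -0.07 to 0.12.

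**Figure D3:**
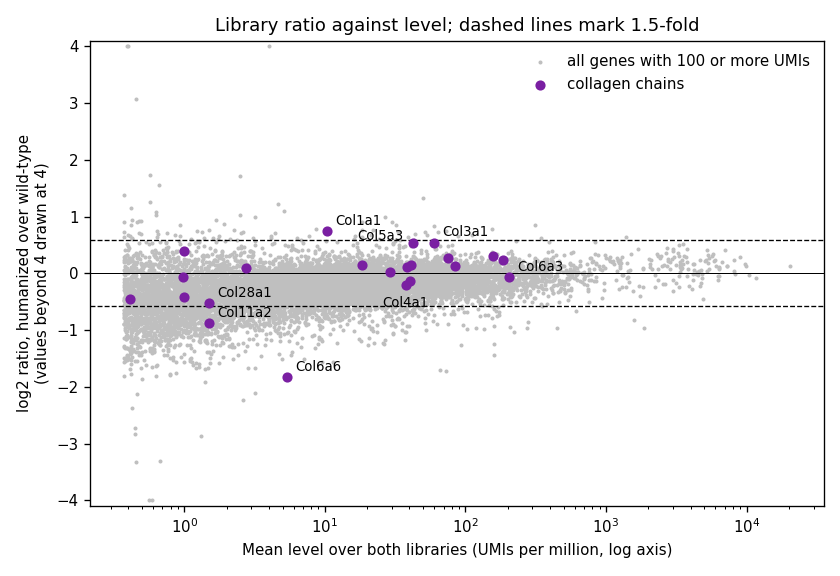
log2 ratio of humanized over wild-type (y) against mean level in CPM (x, log axis) for all genes with 100 or more UMIs in grey and the 22 collagen chains in purple; dashed lines mark 1.5-fold and ratios beyond 4 are drawn at 4. Col6a6 at -1.84 and Col11a2 at -0.88 lie below the lower line and Col1a1 at 0.74 above the upper one.

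Fibrillar and basement membrane RNA were found in the same barcode slightly more often than independent detection would give. After thinning, both classes were present in 16.4% (15.6 to 17.3) of wild-type and 17.4% (16.7 to 18.2) of humanized barcodes. Independent detection would give 14.9% and 16.0%. Fibrillar UMIs alone were present in 36.6% and 44.4%, basement membrane UMIs alone in 11.7% and 8.55%, and neither in 35.3% and 29.7%. The variance of fibrillar UMIs over barcodes was 2.60 and 2.24 times their mean, and that of basement membrane UMIs 1.12 and 1.51 times.

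The higher basement membrane value in the humanized library came from 1 barcode, and without it the variance was 1.09 times the mean. That barcode had 8305 UMIs and carried all 8 endothelial markers, among them 11 UMIs of Esam and 9 of Egfl7. It held 37 UMIs of Col4a1 and 16 of Col4a2, or 6382 basement membrane CPM. It also held 6 of the library's 19 Col15a1 UMIs and 6 of its 19 Col13a1 UMIs, with no type VI UMI and 3 fibrillar UMIs. Col15a1 encodes a multiplexin of vessel basement membranes. After thinning this barcode kept 37 basement membrane UMIs, while the next highest had 5.

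A barcode of another kind lay in the wild-type library. It had 16455 UMIs and carried 7 of the 8 epithelial markers, with 93 of the library's 129 Krt8 UMIs and 145 of its 159 Krt18 UMIs. It held 4 collagen UMIs, none of them fibrillar, basement membrane or type VI, and 3 of them Col8a1. No deep barcode in either library carried 5 or more of the 10 fibroblast markers (at most 4 were met), a count of 0 that, taken to allow 3 barcodes, allows up to 0.0447% and 0.031% of barcodes. The same 5-marker count was 0 for macrophage and for pericyte markers in both libraries, and 2 humanized barcodes reached it for endothelial markers. Macrophages express Ptprc, so leaving out barcodes with a Ptprc UMI lowers their count. With those barcodes kept, 1 wild-type barcode reached 5 fibroblast markers and 1 humanized barcode reached 5 macrophage markers.

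Across deep barcodes, 5 chains of types VI, I, III and V varied together. The correlation of log counts per 10000 was 0.57 in the wild-type library and 0.47 in the humanized one between Col6a1 and Col6a2, the highest of 105 pairs among the 15 most abundant chains. Among Col6a1, Col6a2, Col1a2, Col3a1 and Col5a1 the 10 pairs ran from 0.33 to 0.57 and from 0.24 to 0.47, beside medians of 0.10 and 0.09 over all pairs. These values describe 6705 and 9671 barcodes that share a library and differ in depth. After thinning, these 10 pairs ran from 0.17 to 0.35 and from 0.13 to 0.29. Col6a3 followed its trimer partners less closely, at 0.21 and 0.19 with Col6a1. Col4a1 and Col4a2 correlated with each other at 0.12 and 0.07, and Col6a6 with no chain above 0.02.

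**Figure D4:**
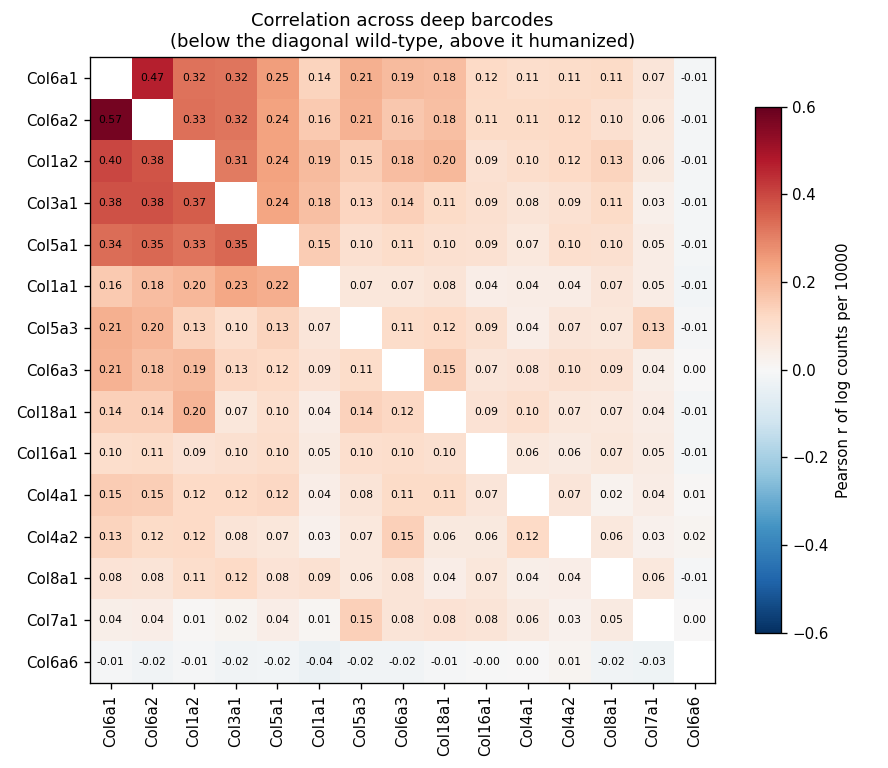
Pearson correlation of log counts per 10000 across deep barcodes for pairs of the 15 most abundant chains, wild-type below the diagonal and humanized above it. Col6a1, Col6a2, Col1a2, Col3a1 and Col5a1 form the block at the upper left, from 0.33 to 0.57 in wild-type and 0.24 to 0.47 in humanized barcodes.

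Outside the family, the genes most like Col1a2 over 12266 genes ranked were Sparc, Fstl1, Ly6a, Fbn1, Ahnak, S100a4, Timp3 and Ecm1. Sparc, a collagen-binding matrix glycoprotein, correlated with Col1a2 at 0.43 and 0.38, and Fstl1 at 0.37 and 0.32. For Col4a1 the list was Cmss1, Ahnak, Glg1, Mmp2, Ltbp4, Hsp90aa1, Plec and Fbln2, and its highest value was only 0.17 in either library.

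Barcodes were then ranged by their fibrillar UMIs after thinning, at 0, 1 to 2, 3 to 9 and 10 or more. These are ranges of 1 measure and not cell types. They held 3150, 2741, 782 and 32 wild-type barcodes and 3697, 4272, 1662 and 40 humanized barcodes. At the top edge, 5 and 18 barcodes had 9 fibrillar UMIs and 10 and 13 barcodes had 10. Median depth was 10734 and 9018 UMIs in the top range against 17024.5 and 12234 in barcodes with none.

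Type VI RNA was higher in each successive fibrillar range. In the wild-type library, beaded filament chains stood at 401 CPM (391 to 411) with no fibrillar UMI, at 546 and 993 in the middle ranges and at 1956 (1746 to 2185) in the top range. The humanized values were 424 (414 to 433), 579, 885 and 1585 (1415 to 1769). Col6a3 spanned less, from 179 to 337.5 CPM in the wild-type library and from 165 to 375 in the humanized one. Basement membrane chains stood at 60.3 (56.5 to 64.2) and 175 (116 to 253) in the wild-type library, and at 53.8 (50.5 to 57.2) and 130 (84.9 to 190.5) in the humanized library. Col6a6 had no UMI in either top range, where 3 UMIs would be 18.75 and 15 CPM, so its level there was not detectable at this depth.

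The genes that fold and modify collagen were also higher in fibrillar-rich barcodes. Members of the folding and modification list summed to 1574 CPM with no fibrillar UMI and 2956 in the top range of the wild-type library, and to 1777 and 2785 in the humanized library. The export list stood at 174 (167 to 180) and 269 (194 to 362) in the wild-type library and at 152 (146 to 158) and 210.0 (151 to 284) in the humanized one. Sparc stood at 828 and 3544 in the wild-type library and at 1252 and 4670 in the humanized one. Fn1, the fibronectin gene, stood at 18.9 and 200 in the wild-type library and at 19.4 and 240 in the humanized one. Fibroblast markers moved the same way, from 69.0 to 250 CPM in the wild-type library and from 64.9 to 185 in the humanized one, with Dcn at 125 and 95 in the top ranges. Of the 10 fibroblast markers, Lum, Fap, Thy1 and Mfap5 were at 0 in both top ranges, and Postn and Dpt had 1 UMI each in the wild-type one and 0 in the other. The part of fibroblast RNA in the fibrillar values was not tested. Macrophage and epithelial markers had 0 UMIs in both top ranges, where 3 UMIs would be 18.75 and 15 CPM, above the level of either list in the whole library.

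**Figure D5:**
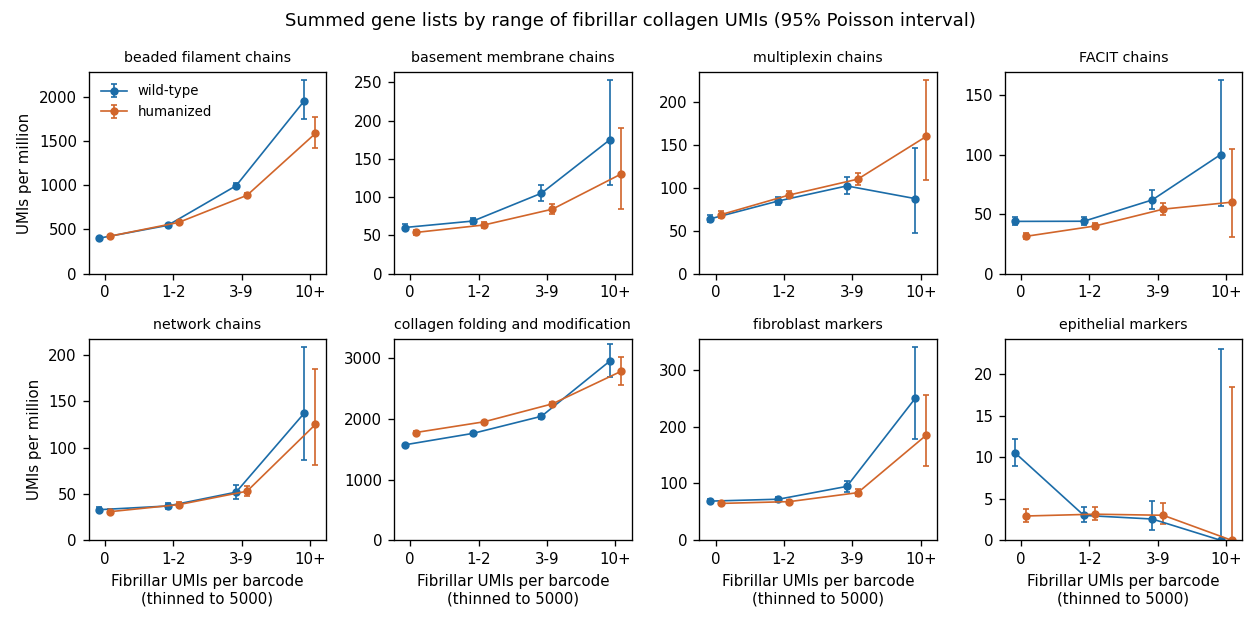
Summed CPM (y) of 5 collagen classes, collagen folding genes and 2 marker lists across ranges of thinned fibrillar UMIs per barcode (x), by library, with 95% Poisson intervals. Beaded filament chains run from 401 to 1956 in the wild-type library and from 424 to 1585 in the humanized one; epithelial markers reach 0 in the top range of both.

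Barcodes rich in Col1a1 were rich in its relatives. With 3 or more thinned Col1a1 UMIs (28 wild-type and 58 humanized barcodes), Col3a1 stood at 343 and 262 CPM, against 51.7 and 72.4 in barcodes with none. Col1a2 stood at 214 and 248 against 66.4 and 77.2. Serpinf1, a secreted collagen-binding protein gene, stood at 207 and 131 against 15.9 and 22.1, and Igfbp7, a secreted growth factor-binding protein gene, at 85.7 and 75.9 against 11.1 and 13.6. Of the fibroblast markers, Dcn stood at 28.6 (7.78 to 73.2) and 31.0 (14.2 to 58.9) against 37.6 and 32.9, and Pdgfrb at 50 (20.1 to 103) and 17.2 (5.60 to 40.2) against 13.4 and 15.2. Lum, Postn and Fap had 0 UMIs in the Col1a1-rich barcodes of both libraries, where the intervals reach 26.3 and 12.7 CPM. In barcodes with no Col1a1 UMI they had 0 to 3 UMIs each. With 1 to 2 Col1a1 UMIs, Dcn stood at 55.2 (38.9 to 76.1) and 28.2 (20.1 to 38.4).

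Most genes of the machinery for making collagen were measured in both libraries. Of 18 folding and modification genes, 16 reached 100 UMIs and none differed 1.5-fold between libraries, beside 0.641% of all genes higher and 12.9% lower. The median log2 ratio of the list was 0.09, beside -0.21 over all genes and -0.09 over genes with 10000 or more UMIs. Its most abundant members were Ppib, a prolyl isomerase, at 502 and 652 CPM, and Serpinh1, the collagen chaperone HSP47, at 418 and 452. P4hb and P4ha1, the subunits of prolyl 4-hydroxylase, followed at 188 and 225 and at 117 and 102. Against the same shares, none of 7 measured export genes passed 1.5-fold, with a median of -0.06, led by Sec23b at 47.4 and 37.7, Mia3 at 44.7 and 42.9, Mia2 at 32.2 and 25.8, and Sec23a at 21.95 and 22.02 CPM. None of 11 measured processing and cross-linking genes passed it, with a median of 0.07. Pcolce, an enhancer of procollagen cleavage, led at 295 and 345 CPM, above Pxdn at 33.9 and 33.0, Bmp1 at 31.4 and 33.9, and Pcolce2 at 26.2 and 34.0. Lox, a lysyl oxidase that cross-links fibrils, was at 0 UMIs in both libraries, while its relative Loxl1 stood at 21.3 and 21.8.

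Partners of the chains in the matrix were measured in part. Of 15 basement membrane partners, 9 reached 100 UMIs, and Lama5, a laminin chain, was the 1 that was at least 1.5-fold lower in the humanized library, at 19.1 and 10.8 CPM, or 1 of 9 beside 12.9% of all genes. Among the others, the laminin chain Lamb1 stood at 104 and 106, the perlecan gene Hspg2 at 80.6 and 80.2, and the laminin chain Lamc1 at 48.8 and 48.8. Of 15 interstitial partners, 8 were measured, and Sparc was the 1 at least 1.5-fold higher, at 1066 and 1663 CPM, a log2 ratio of 0.64, or 1 of 8 beside 0.641% of all genes. Bgn, the biglycan gene, stood at 797 and 893, Ccn1 at 62.5 and 70.7, and Fbn1, the fibrillin gene, at 57.9 and 65.5. Of 10 receptor and uptake genes, 7 were measured, led by the integrin subunit Itgb1 at 184 and 165 and the collagen receptors Ddr2 at 47.6 and 42.7, Ddr1 at 46.4 and 49.0, and Mrc2 at 23.8 and 28.6. The collagen-binding integrin subunits Itga1, Itga10 and Itga11 were under 1 CPM, and Itga11 was 1.5-fold lower at 72 and 50 UMIs, or 1 of 7 beside 12.9% of all genes. In the range of Itga11, 100 to under 1000 UMIs, 33.4% of genes were that much lower.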

How the data were processed

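The authors deposited unnormalized UMI counts by gene and droplet, in matrices made with PISA 1.0, per the file headers. The genome build is GRCm39, per the submitters' processing notes; the aligner, the annotation, the use of strand and how cells were called are not stated there or in the labels. The 2 cDNA libraries of the 4 samples were analysed, 1 per genotype; the other 2 samples, oligo libraries, were not analysed here. The barcodes as deposited were used with no doublet caller, and deep barcodes are those with 5000 or more UMIs and none of Cd3e, Cd3d, Cd3g or Ptprc.

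UMIs were summed over deep barcodes (129144384 and 140575771 in the wild-type and humanized libraries) and expressed per 1000000 UMIs (CPM). Intervals are 95% exact Poisson for levels, Clopper-Pearson for shares and exact conditional for ratios, and cover counting error only. With 1 library per genotype no test was run: a gene counts as different at 1.5-fold or more with at least 100 UMIs over both libraries. Thinning drew UMIs without replacement with a fixed seed. The steps for ratios, intervals and thinning were tested on simulated data. Python 3.11.15, numpy 2.4.6 and scipy 1.17.1 were used.

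All chains with 100 or more UMIs are named. Of each other list, the 4 most abundant members and all members 1.5-fold apart are named, and the 8 genes most like Col1a2 and Col4a1 are those with the highest lower correlation of the 2 libraries. Fap, Lum, Postn, Thy1, Mfap5, Dpt, Fn1, Serpinf1, Igfbp7, Loxl1, Lox, Itga1 and Itga10, and the endothelial and epithelial barcodes, were chosen after their values were seen. The members and lists were chosen with earlier results of these data known. Alternatives covered the depth minimum and maximum, barcodes with T cell or leukocyte markers, scaling, rich barcodes, thinning, averaging per barcode and the thresholds.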

Additional observations from a re-analysis of the deposited data

How the results depend on the processing

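Col6a6, Col11a2 and Col1a1, the chains past 1.5-fold, changed sign under no alternative, while Col9a3 at 0.40 was -0.05 thinned. Of 198 values for the 22 chains under 9 alternatives, 189 kept their side of 1.5-fold and 9 did not. Col6a6 ran from -1.85 to -1.64. The chains 1.5-fold higher in the humanized library numbered 4 when scaled by the median of gene ratios, adding Col3a1 at 0.73, Col5a3 at 0.72 and Col9a3 at 0.59. They numbered 2 without the richest 1% of barcodes by collagen UMIs, where Col3a1 was at 0.60, and 0 among barcodes of 10000 to under 20000 UMIs, an alternative chosen after seeing the data, where Col1a1 was at 0.02. They numbered 2 with a minimum of 20 UMIs, 5 with no minimum and 0 at 2-fold. No share of all genes is given under any of these alternatives. The counts of chains higher or lower under them therefore cannot be set against what genes in general do. The chains 1.5-fold lower numbered 1 after thinning, 3 with CD3 or Ptprc barcodes kept, 6 with a minimum of 20 UMIs, 11 with no minimum and 1 at 2-fold. Thinned values were -0.53 for Col11a2, -1.01 for Col17a1 and -1.07 for Col19a1. After thinning, Col17a1 was found in 39 and 28 barcodes and Col19a1 in 16 and 11. Both fell under the minimum of 100 UMIs, so they are not in the thinned count and their values rest on few UMIs.

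The fibrillar log2 ratio was 0.56 scaled by the median of gene ratios, 0.33 thinned, 0.33 as the mean of barcode values and 0.25 at 10000 to under 20000 UMIs, beside 0.20 at 5000 to under 10000 and 0.43 at 20000 or more. The basement membrane ratio was 0.079 under the median of gene ratios. The fibrillar share of collagen UMIs in the wild-type library was 20.3% with a minimum of 10000 UMIs, 20.8% with at most 50000, 20.2% without the richest 1%, 21.4% thinned, 21.5% as the mean of barcode values and 22.3% at 10000 to under 20000 UMIs. In the humanized library it was 23.7% with a minimum of 10000 UMIs, 23.6% without the richest 1%, 24.6% thinned and 24.4% as the mean of barcode values. With a minimum of 20 UMIs, 1 of 12 basement membrane partners and 2 of 10 interstitial partners were 1.5-fold higher. At least 1.5-fold lower were 1 of 12 basement membrane partners and 1 of 7 receptor and uptake genes. The higher basement membrane partner was Lama3, with 1 and 19 UMIs. No share of all genes is given at that minimum. The causes were not tested. No paired analysis was possible because each genotype has 1 cDNA library.

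Differences between genotypes, mice and libraries cannot be told apart. The 21 chains under 100 UMIs are too shallow for a comparison.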

Other observations

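Lists unrelated to matrix were summed over the same ranges of fibrillar UMIs. The 12 G2 and mitosis genes stood at 822 and 810 CPM in wild-type and humanized barcodes with no fibrillar UMI and at 662.5 and 650.0 in the top range. The 12 interferon-induced genes stood at 268 and 222 with no fibrillar UMI, at 334.5 and 270.5 with 3 to 9, and at 387.5 and 215 in the top range. The hypoxia and glycolysis genes stood at 3023 and 3426 with none and at 3144 and 3870 in the top range. Between libraries none of the 12 G2 and mitosis genes and none of the 11 measured hypoxia genes were 1.5-fold apart, and 2 of the 12 interferon-induced genes were lower in the humanized library, Ifit1 at -0.74 and Rsad2 at -0.89 (log2), beside 12.9% of all genes lower and 0.641% higher. Both Ifit1 and Rsad2 had 100 to under 1000 UMIs, a range where 33.4% of genes were that much lower.

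Of the marker lists, 3 of 4 measured epithelial genes were at least 1.5-fold lower in the humanized library. Of all genes 12.9% were that much lower, and 33.4% of those with 100 to under 1000 UMIs. The keratin-rich wild-type barcode held 75 of 96 Krt19 UMIs beside its Krt8 and Krt18 UMIs. Without that barcode, a comparison chosen after seeing the data, Krt8 had 36 and 40 UMIs (log2 ratio 0.03), Krt19 had 21 and 40 (0.81) and Krt18 had 14 and 1, so each fell under 100 UMIs and Krt19 turned. Cdh1, the most abundant of the list, stood at 2.56 and 2.51 CPM. Emcn, 1 of 3 measured endothelial markers, was lower at 86 and 61 UMIs, beside the same shares. Trac, the 1 measured T cell marker, was higher at 43 and 71 UMIs. Of all genes 0.641% were that much higher, and 1.29% of those with 100 to under 1000 UMIs. No fibroblast, pericyte or macrophage marker with 100 or more UMIs was 1.5-fold apart.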
